A study of Mus musculus with 6 samples.

Results

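The genes described here are the H2 genes, the major histocompatibility complex (MHC) of the mouse, in liver RNA-Seq of 3 laboratory mice and 3 wild mice (Mus musculus). They were taken as every gene name that begins with H2- and does not end in -ps, the ending of pseudogene names, which gave 46 of the 49997 gene names listed in the files. H2-M10.5-ps1, whose name ends in -ps1, was kept by this rule, was counted as class I and was at 0 in every mouse. The laboratory mice were inbred C57BL/6, all 3 male. The wild mice were outbred adults trapped at 2 sites and then housed, and comprised 1 male (wild mouse 1) and 2 females (wild mice 2 and 3), so part of any difference between the groups cannot be told apart from sex. Each mouse contributed 1 library from liver that had been frozen and not fixed. Expression was given as FPKM, the fragments mapped to a gene scaled to its length and to the library, and as zFPKM, the log2 FPKM of a mouse less the mode of its own distribution and divided by an SD fitted to that distribution.

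MHC class I molecules are single transmembrane chains that pair with beta-2 microglobulin and display peptides from inside the cell to CD8 T cells, and they are made by nearly every cell. Class II molecules are pairs of an alpha and a beta chain that display peptides taken up from outside to CD4 T cells, and they are made mainly by B cells, dendritic cells and macrophages. Among the 46 names, 34 were class I, 11 were class II and 1, H2-Ke6, was the gene of a steroid dehydrogenase (Hsd17b8) that lies in the complex and encodes no MHC molecule. The classical class I genes H2-K1 and H2-D1 and the class II genes H2-Aa, H2-Ab1 and H2-Eb1 are among the most polymorphic genes of the mouse. C57BL/6 mice carry one fixed set of their alleles, the haplotype b, while outbred mice carry others.

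The reference genome holds part of this variety. Its chromosomes come from C57BL/6J, and for the MHC it also holds alternate sequences from other inbred strains. The files listed 42 of the 46 genes more than once, at chromosome 17 and on 6 alternate sequences, here called alternate A to F, which gave 158 entries for the 46 names. The other 4 genes (H2-D4, H2-Q8, H2-Q9 and H2-Pb) had 1 entry. On chromosome 17 of GRCm38 the H2 genes lay between 33974659 and 37483554, from H2-K2 to H2-M2. Reads of a gene whose copies are alike can be counted at several entries, so the entries of a name were neither independent nor additive.

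In the 5 mice other than laboratory mouse 1, some entries of a name held nearly the same values. For class II, the entries at chromosome 17 and at alternate A lay within 5% of each other in all 5 mice for 8 of 8 genes with both, and those at alternates B and C for 6 of 6. Class I was less regular, with 5 of 10 genes within 5% between chromosome 17 and alternate A, 6 of 9 between alternates A and B, and 14 of 15 between alternates B and C. Between chromosome 17 and alternate B, 8 of 8 class II genes and 10 of 15 class I genes differed by more than that in at least 1 mouse. Chromosome 17 and alternate B were therefore compared throughout.

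Laboratory mouse 1 was listed differently, with 1 entry per name. Among the 14 repeated H2 names whose entries differed by more than 1.5 times and 0.1 FPKM in laboratory mice 2 and 3, the entry listed for laboratory mouse 1 was the lowest of the name in 13 and the highest in 0. The same held across the whole files, where it was the lowest entry in 279 of 294 such names (94.9%). For H2-K1 the listed entry was alternate C, at 0 FPKM, while laboratory mice 2 and 3 also had 0 there and 439 and 339.6 FPKM at chromosome 17. A value of laboratory mouse 1 is therefore set beside the others only at the entry it belongs to, and most comparisons at chromosome 17 rest on 2 laboratory mice.

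The upstream sequences of 6 genes are shown because they cover the most abundant class I genes (H2-Q10, H2-K1 and H2-D1), the gene with the smallest adjusted p over entries (H2-T23) and 2 chains of class II (H2-Aa and H2-Eb1). Each is the 250 bases before the start site in RefSeq, 5′ to 3′ on the strand of the gene, in GRCm38.p6, the C57BL/6J sequence. Capitals mark 4 motifs searched on both strands, none of which overlapped another here. These are GGGGATTCCCC, the kappa B element known from class I enhancers, GAAA followed after any 2 bases by a second GAAA, the letters of an interferon response element, TAGCAAC, the core of the class II X box, and TATAAA, the TATA box.
H2-K1, chr17:34000348-34000597, minus strand: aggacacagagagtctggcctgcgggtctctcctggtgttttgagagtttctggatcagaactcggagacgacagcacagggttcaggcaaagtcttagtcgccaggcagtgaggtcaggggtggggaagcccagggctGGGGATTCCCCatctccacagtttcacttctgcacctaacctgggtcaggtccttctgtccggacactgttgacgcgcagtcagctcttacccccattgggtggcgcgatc
H2-D1, chr17:35262844-35263093, plus strand: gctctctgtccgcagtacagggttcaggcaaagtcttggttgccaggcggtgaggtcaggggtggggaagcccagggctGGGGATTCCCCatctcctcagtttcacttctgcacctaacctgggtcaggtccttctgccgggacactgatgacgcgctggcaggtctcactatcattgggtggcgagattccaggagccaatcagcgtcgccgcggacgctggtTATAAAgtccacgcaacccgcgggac
H2-Q10, chr17:35469839-35470088, plus strand: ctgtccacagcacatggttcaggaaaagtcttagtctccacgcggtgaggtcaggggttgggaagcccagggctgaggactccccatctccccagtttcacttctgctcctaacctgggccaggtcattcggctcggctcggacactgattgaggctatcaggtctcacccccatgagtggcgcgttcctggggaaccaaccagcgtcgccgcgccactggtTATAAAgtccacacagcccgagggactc
H2-T23, chr17:36032702-36032951, minus strand: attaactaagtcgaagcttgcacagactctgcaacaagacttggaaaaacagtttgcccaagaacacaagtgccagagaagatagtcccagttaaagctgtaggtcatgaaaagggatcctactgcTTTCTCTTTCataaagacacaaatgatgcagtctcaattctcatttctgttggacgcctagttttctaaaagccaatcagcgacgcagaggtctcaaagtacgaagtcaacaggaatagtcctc
H2-Aa, chr17:34287824-34288073, minus strand: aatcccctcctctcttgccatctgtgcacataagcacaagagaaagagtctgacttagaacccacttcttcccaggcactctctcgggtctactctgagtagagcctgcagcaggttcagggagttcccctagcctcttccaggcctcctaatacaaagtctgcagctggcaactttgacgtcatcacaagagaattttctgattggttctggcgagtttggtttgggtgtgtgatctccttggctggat
H2-Eb1, chr17:34305617-34305866, plus strand: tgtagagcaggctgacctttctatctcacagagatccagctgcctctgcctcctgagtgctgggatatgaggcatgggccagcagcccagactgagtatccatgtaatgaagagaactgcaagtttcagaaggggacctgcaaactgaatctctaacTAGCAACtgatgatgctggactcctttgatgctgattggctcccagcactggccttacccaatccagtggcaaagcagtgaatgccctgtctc

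RefSeq held a start site for 31 of the 46 genes, with 34 windows in all. The kappa B letters stood in the windows of 3 H2 genes, H2-K1, H2-D1 and H2-Q6, and in 10 of the 32851 windows of all genes (0.0304%). In H2-K1 they began 111 bases and in H2-D1 171 bases before the start. H2-K1 had 2 start sites in RefSeq, and the one nearest to the boundary of its entry was used. It stood at -272 bases from that boundary, so the window lies inside the entry, while the other windows shown abut theirs. The nearest stretch of H2-Q10 differed from them at 2 bases, and the 6 letters TATAAA stood 28 bases before its start. The interferon response letters were found for H2-T22 and H2-T23 (2.98% of all windows), and in H2-T23 they began 124 bases before the start on the opposite strand. The X box core was found for H2-Eb1, H2-Eb2 and H2-Ob (3.16% of all windows). TATAAA stood in windows of 12 H2 genes and in 12.4% of all windows. Only the exact letters of each motif were searched. An unmarked window, such as those of H2-K1, H2-D1 and H2-Q10 for the interferon response, may therefore hold another form of the element. The letters found are a description of the reference and say nothing of the alleles of the wild mice.

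Liver expressed few of the H2 genes strongly. In every mouse 14 of the 46 genes were at 0 at every entry, among them H2-M1, H2-M5, H2-M9, H2-M11, 5 of the 6 H2-M10 genes, whose family is known from the vomeronasal organ, and the class II genes H2-Pa and H2-Pb. A further 4 (H2-Eb2, H2-M2, H2-M10.6 and H2-T3, the thymus leukaemia antigen) were above 0 in at least 1 mouse but did not reach zFPKM above -3 in 3 mice. The remaining 28 genes were tested, 19 of them class I, 8 class II and H2-Ke6.

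H2-Q10, which encodes a class I molecule that the liver secretes, was the most abundant by mean over the 5 mice with all entries. Its 4 entries were equal to within 5%, so the place of the entry did not matter. The FPKM was 178, 191 and 232 in laboratory mice 1 to 3 (200.1 ± 28.3, SD, n = 3) and 233, 548 and 310.0 in wild mice 1 to 3 (364 ± 164, SD, n = 3). In FPKM the groups did not overlap, although the highest laboratory mouse and the lowest wild mouse were nearly equal, and a two-sided exact permutation test of log2(FPKM + 0.1) gave p = 0.1, the smallest that 3 against 3 allows. On the zFPKM scale the difference, laboratory minus wild, was 0.01 ± 0.12 (SE, limma, adjusted p = 0.987), and on log2(FPKM + 0.1) it was -0.78 (limma, adjusted p = 0.0826), so the sign depended on the scale. The 2 scales differ for all genes, since the median difference of all tested entries was -0.45 on log2(FPKM + 0.1).

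H2-K1, a classical class I heavy chain at chr17:33996012-34000619, was next. At chromosome 17 its FPKM was 439 and 339.6 in laboratory mice 2 and 3 (389 ± 70.0, SD, n = 2) and 138, 325 and 139 in wild mice 1 to 3 (201 ± 108, SD, n = 3). Both laboratory mice stood above the 3 wild mice, with wild mouse 2 close to laboratory mouse 3. H2-D1, the other classical heavy chain, had 44.0 and 26.5 FPKM in laboratory mice 2 and 3 at alternate C, with 39.4 in laboratory mouse 1, and 23.5, 58.3 and 158 in wild mice 1 to 3. The groups overlapped for H2-D1, and its difference in zFPKM was -0.01 ± 0.14 (SE, limma, adjusted p = 0.985).

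**Figure D1:**
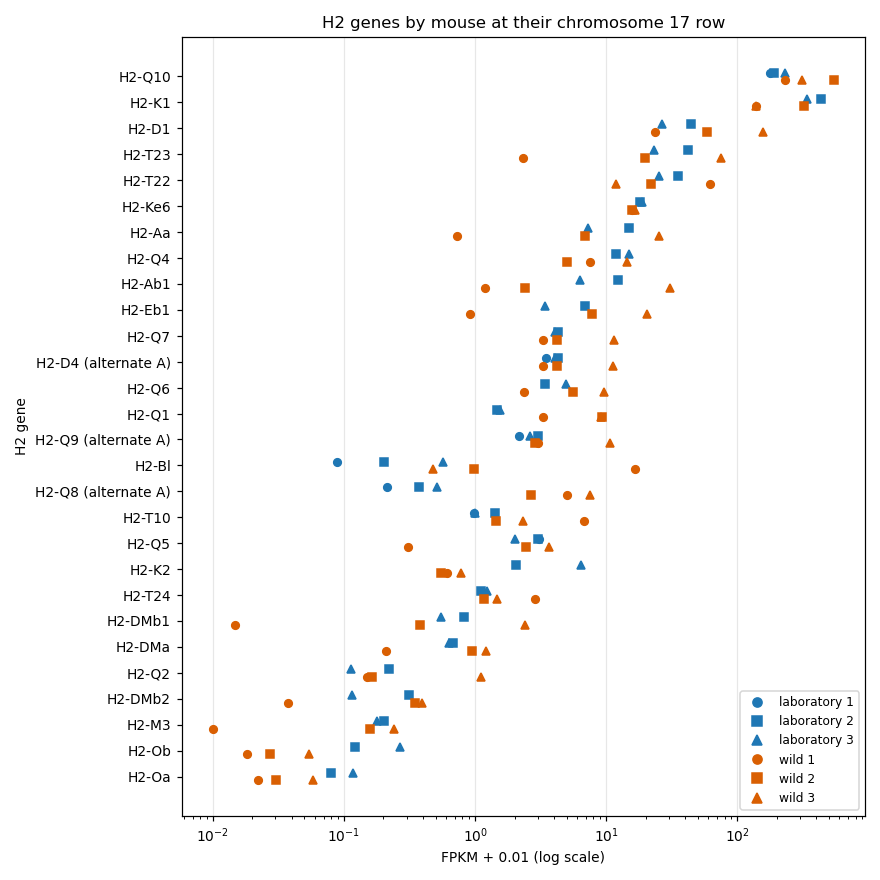
FPKM plus 0.01 on a log axis for the 28 tested H2 genes at their chromosome 17 entry (alternate A for the 3 tested genes listed only there), 1 point per mouse, blue for laboratory and orange for wild mice. H2-Q10 and H2-K1 lie between 138 and 548 FPKM in every mouse shown, laboratory mouse 1 appears only where its file lists that entry, and wild mouse 1 is the lowest mouse shown for H2-T23, H2-Aa, H2-Ab1 and H2-Eb1.

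Next in order of mean FPKM at chromosome 17 came H2-T23, H2-T22, H2-Ke6, H2-Aa, H2-Q4, H2-Ab1 and H2-Eb1. From H2-Q10 to H2-Eb1, the ranges over mice of neighbours in this order overlapped. H2-T23 encodes Qa-1, which displays leader peptides of other class I molecules to the CD94/NKG2 receptors of natural killer cells, and H2-T22 and H2-T10 are ligands of some gamma-delta T cell receptors. H2-Ke6 was the steadiest, with 18.02 and 18.8 FPKM in laboratory mice 2 and 3 and 15.8, 15.6 and 16.6 in the wild mice at chromosome 17. H2-Q7 and H2-Q9, which encode the Qa-2 antigen, had 4.31 and 4.06 FPKM (H2-Q7, laboratory mice 2 and 3, chromosome 17) against 3.28, 4.20 and 11.4 in wild mice. H2-Q9 had 2.17, 3.002 and 2.62 FPKM in laboratory and 3.02, 2.86 and 10.602 in wild mice. Wild mouse 3 stood above the other mice for both genes. H2-M3, which presents formylated bacterial peptides, did not exceed 1.19 FPKM in any mouse at any entry.

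The question that the 2 groups pose for these genes is which of them differ between laboratory and wild mice. Taking for each mouse the highest entry of a name, limma called 4 of the 28 genes (adjusted p under 0.05), against 14.1% of the 19567 gene names tested (6.88% higher in laboratory and 7.19% higher in wild mice), so the share was close to that of all genes. All 4 were class I and higher in wild mice, namely H2-Bl, H2-K1, H2-Q8 and H2-T23. Groups did not overlap for 4 of the 28 genes (H2-Bl, H2-K2 and H2-Q8 higher in wild mice and H2-Ob in laboratory mice), against 27.9% of all names tested. The median difference of the 28 genes was -0.11, and that of all tested names was 0.003.

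For names with several entries these values compared different entries, in laboratory mouse 1 and also among the other mice. H2-T23, for example, was taken at chromosome 17 in laboratory mice 2 and 3. In wild mice 1 to 3 it was taken at alternate C, alternate B and chromosome 17. When laboratory mouse 1 was taken as missing for repeated names, a choice made after the data were seen, 3 of 28 genes were called against 13.9% of all names (6.89% higher in laboratory and 7.03% higher in wild mice). H2-K1 then turned from -1.23 to 0.62 and was higher in laboratory mice (adjusted p = 4.86e-05), and H2-T23 was no longer called (-0.14, adjusted p = 0.660). H2-Bl stayed at -1.11 (adjusted p = 0.00736) and H2-Q8, with its single entry, at -1.08 (adjusted p = 0.00706). Entries were still mixed among the other mice in this fit. With the chromosome entry alone, H2-T23 was 0.56 (limma, adjusted p = 0.0228) and H2-Bl was -0.90 and not called (adjusted p = 0.0796).

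Each entry was then tested as a feature of its own, so that only values at the same place were compared. Of the 158 H2 entries 95 passed the filter and 20 were called, against 13.6% of 20756 entries in all. The 5 entries higher in laboratory mice came from 3 names and the 15 higher in wild mice from 8 names. Alternates B and C agreed within 5% for 21 of 22 genes. Counts of H2 entries over several sequences, here and below, therefore hold copies of the same gene and cannot be read as an excess over that share. The direction followed the place of the entry. At chromosome 17, 3 of 25 tested entries were called, all higher in laboratory mice (H2-K1, H2-K2 and H2-T23), against 6.62% of all entries in that direction. At alternate B, 7 of 23 were called, all higher in wild mice (H2-Aa, H2-Ab1, H2-Bl, H2-K1, H2-K2, H2-T22 and H2-T23), against 7.02% of all entries in that direction. Within a sequence a name was listed once. The shares given are over all entries, and were not computed for the other genes of the same sequence. The counts at chromosome 17 and at alternate B therefore cannot be read as particular to H2 genes. The median difference was 0.25 at chromosome 17 and -0.29 at alternate B.

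These adjusted p values rest on a variance that limma took from the trend over all genes, with infinite prior degrees of freedom, and so not from the spread of the gene itself. Without the trend, 6 of the 95 H2 entries were called, all higher in wild mice, against 4.07% of all entries (2.22% higher in laboratory and 1.85% higher in wild mice). At chromosome 17 it was 0 of 25 by limma without the trend, with 4 at an unadjusted p under 0.05. Adjusted p values without the trend are given below beside the others.

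**Figure D2:**
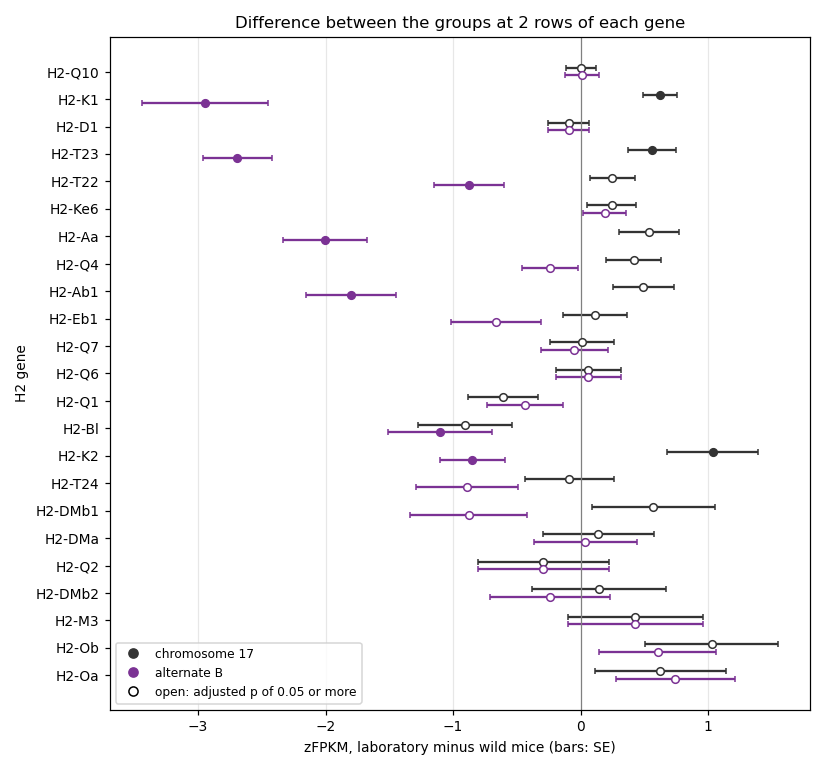
Difference in zFPKM between laboratory and wild mice (laboratory minus wild, bars are SE of the limma fit) for the H2 genes tested at alternate B, ordered by level, at chromosome 17 (black) and at alternate B (purple), with filled points where the adjusted p was under 0.05. H2-K1, H2-K2 and H2-T23 lie to the right of 0 at chromosome 17 and to the left at alternate B, while H2-Q10, H2-D1 and H2-Q6 have the same value at both.

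H2-T23 was the H2 gene with the smallest adjusted p over entries. At alternate B, laboratory mice 1 to 3 had 0.189, 0.106 and 0.0897 FPKM (0.128 ± 0.0531, SD, n = 3) and wild mice 1 to 3 had 45.5, 58.4 and 26.0 (43.3 ± 16.3, SD, n = 3). The 3 wild mice were all above the 3 laboratory mice, and the mean of wild mice was 337 times that of laboratory mice. The difference in zFPKM was -2.69 ± 0.27 (SE, limma, adjusted p = 4.86e-21, 0.00725 without the trend), and it was -2.61 with sex as a covariate (adjusted p = 0.00418). At chromosome 17 (chr17:36029977-36032701), laboratory mice 2 and 3 had 41.9 and 23.2 FPKM and wild mice 1 to 3 had 2.32, 19.7 and 75.5. Here the groups overlapped with equal means (32.6 and 32.5), and the difference of 0.56 ± 0.19 (SE, limma, adjusted p = 0.0246, 0.633 without the trend) turned to -0.02 when wild mouse 1 was left out.

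H2-K1 was also called in opposite directions at chromosome 17 and on an alternate sequence, but its level on the alternate sequence was low. At alternate C all 3 laboratory mice were listed at 0 FPKM, and wild mice 1 to 3 had 2.56, 2.44 and 4.31 (3.10 ± 1.05, SD, n = 3). The difference in zFPKM, with values under -3 set to -3, was -2.89 ± 0.47 (SE, limma, adjusted p = 4.39e-08, 0.000997 without the trend). At chromosome 17 the difference was 0.62 ± 0.13 (SE, limma, adjusted p = 0.000101, 0.235 without the trend), and the mean FPKM of laboratory mice was 1.94 times that of wild mice. On log2(FPKM + 0.1) the chromosome 17 difference was 1.07 and was not called (limma, adjusted p = 0.0811).

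H2-K2 lies at the K end of the complex, next to H2-K1. Its chromosome 17 entry had 2.04 and 6.42 FPKM in laboratory mice 2 and 3 and 0.600, 0.541 and 0.775 in wild mice 1 to 3. Its alternate B entry had 0.570, 0.965 and 1.41 FPKM in laboratory mice 1 to 3 and 9.34, 5.90 and 9.96 in wild mice 1 to 3. The groups did not overlap at either place and stood in opposite order. The difference was 1.03 ± 0.36 at chromosome 17 (SE, limma, adjusted p = 0.0328, 0.0807 without the trend) and -0.85 ± 0.25 at alternate B (SE, limma, adjusted p = 0.00914, 0.0625 without the trend). With 1 mouse left out, the adjusted p at chromosome 17 was 0.0545 to 0.211, over the threshold in each of the 6 repeats, and at alternate B it was 0.0192 to 0.167, over the threshold without wild mouse 2 or 3. With sex as a covariate the alternate B difference was -0.71 (adjusted p = 0.132).

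H2-T22 had 35.1 and 25.4 FPKM at chromosome 17 in laboratory mice 2 and 3 and 61.9, 22.1 and 11.8 in wild mice 1 to 3, which overlapped. At alternate B it had 0.693, 0.850 and 0.546 FPKM in laboratory mice 1 to 3 and 7.62, 1.76 and 15.7 in wild mice 1 to 3. All wild mice were above the laboratory mice there, with a difference of -0.87 ± 0.27 (SE, limma, adjusted p = 0.0157, 0.195 without the trend). The call was lost with sex as a covariate (-0.77, adjusted p = 0.288) and without laboratory mouse 3, wild mouse 1 or wild mouse 3 (adjusted p of 0.158, 0.0921 and 0.425). H2-T10, the related gene, had 0.973, 1.42 and 0.990 FPKM in laboratory mice at chromosome 17 and 6.82, 1.45 and 2.31 in wild mice, and was not called (adjusted p = 0.642).

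**Figure D3:**
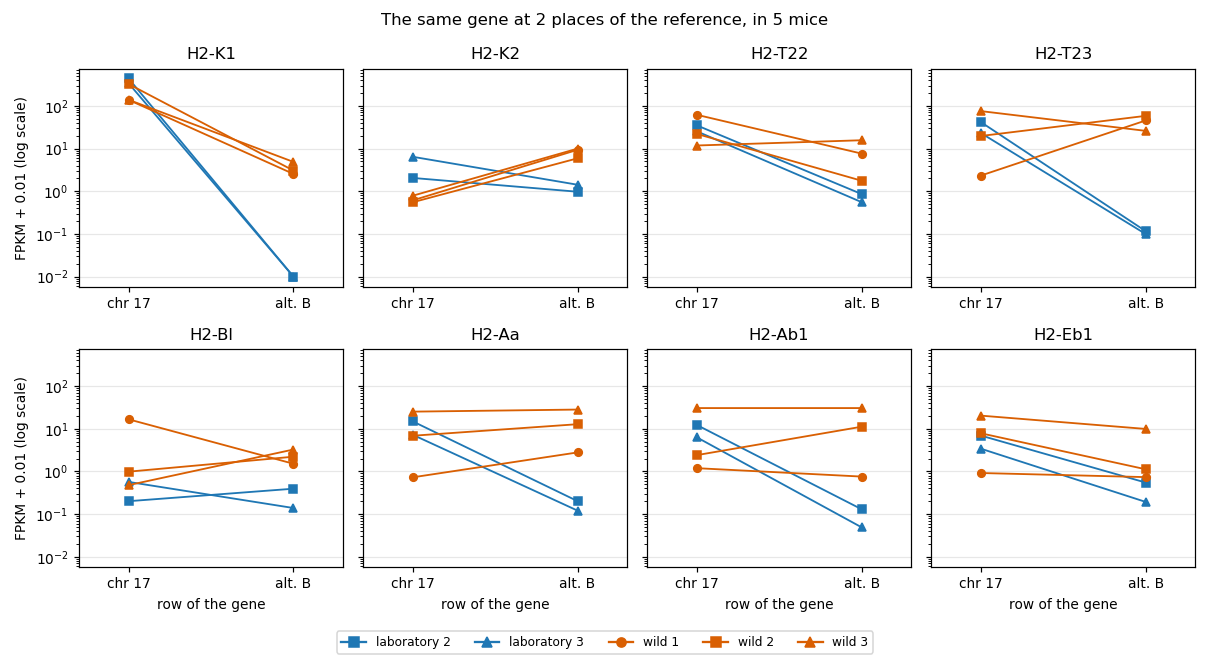
FPKM plus 0.01 on a log axis at the chromosome 17 and the alternate B entry of 8 H2 genes, with 1 line per mouse (blue laboratory mice 2 and 3, orange wild mice 1 to 3). For H2-T23, H2-Aa and H2-Ab1 the lines of the laboratory mice drop to 0.192 FPKM or less at alternate B while those of the wild mice stay between 0.749 and 58.4, and for H2-K1 the laboratory mice drop to 0.

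H2-Bl and H2-Q8 were the genes called in wild mice however laboratory mouse 1 was treated. H2-Q8, a class I gene of the Q region listed only at alternate A, had 0.205, 0.361 and 0.504 FPKM in laboratory mice 1 to 3 (0.356 ± 0.149, SD, n = 3) and 4.99, 2.67 and 7.54 in wild mice 1 to 3 (5.07 ± 2.44, SD, n = 3). The 3 wild mice were all above the laboratory mice, with means 14.2 times apart. Its difference was -1.08 ± 0.31 (SE, limma over entries, adjusted p = 0.00718, 0.0459 without the trend), but -0.89 with sex as a covariate (adjusted p = 0.133) and -0.94 without wild mouse 3 (adjusted p = 0.197), which both ended the call. It overlaps the entry of H2-Q5 on alternate A, whose range of 1642941 to 1673689 lies within the 1642938 to 1675706 of H2-Q8, so their reads may be hard to separate.

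H2-Bl, a class I gene of the T region first described from blastocysts, had 0.0783, 0.191 and 0.559 FPKM in laboratory mice 1 to 3 at chromosome 17 and 16.6, 0.978 and 0.468 in wild mice 1 to 3. Wild mouse 1 alone was far above the rest there, wild mouse 3 lay below laboratory mouse 3, and the entry was not called (-0.90 ± 0.37, SE, limma, adjusted p = 0.0828). At alternate B, laboratory mice 2 and 3 had 0.385 and 0.129 FPKM and wild mice 1 to 3 had 1.504, 2.21 and 3.26, without overlap (-1.10 ± 0.40, SE, limma, adjusted p = 0.0480, 0.217 without the trend). Its call at alternate B rested on several mice, since the adjusted p rose to 0.480 without laboratory mouse 3 and was 0.0612, 0.242 and 0.324 without wild mouse 1, 2 or 3. It was 0.104 without laboratory mouse 1, which has no entry there, and 0.481 with sex as a covariate.

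The remaining class I genes were not called at any entry. H2-Q1 had 1.47 and 1.53 FPKM in laboratory mice 2 and 3 at chromosome 17 and 3.26, 9.23 and 9.14 in wild mice 1 to 3, with no overlap and a difference of -0.60 ± 0.27 (SE, limma, adjusted p = 0.135). H2-Q4 had 11.9 and 15.0 FPKM in laboratory mice 2 and 3 at chromosome 17 and 7.54, 4.98 and 14.3 in wild mice 1 to 3, and stood in the other order at alternate B, with 4.91 and 6.20 against 8.26, 10.25 and 20.7 FPKM. H2-T24 had 0.139, 0.219 and 0.121 FPKM in laboratory mice 1 to 3 at alternate B and 1.05, 1.51 and 1.87 in wild mice 1 to 3, again without overlap (adjusted p = 0.130). H2-D4, H2-Q2, H2-Q5, H2-Q6 and H2-Q7 overlapped between the groups at each entry tested. With sex as a covariate, and so resting on wild mouse 1, the H2-Q5 difference at chromosome 17 was 1.65 (limma, adjusted p = 0.0143).

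Among class II genes, the alpha chain H2-Aa and the beta chain H2-Ab1 together form the molecule I-A, the only class II molecule that haplotype b displays. At chromosome 17 (chr17:34282744-34287823), H2-Aa had 14.9 and 7.25 FPKM in laboratory mice 2 and 3 and 0.718, 6.85 and 25.2 in wild mice 1 to 3. The groups overlapped, with wild mouse 1 lowest and wild mouse 3 highest (0.54 ± 0.24, SE, limma, adjusted p = 0.117). At alternate B, it had 0.0639, 0.192 and 0.111 FPKM in laboratory mice 1 to 3 and 2.78, 12.8 and 28.2 in wild mice 1 to 3. No wild mouse overlapped a laboratory mouse there (-2.003 ± 0.33, SE, limma, adjusted p = 8.40e-08, 0.0445 without the trend), and with sex as a covariate the difference was -1.14 (adjusted p = 0.112).

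H2-Ab1 had 12.3 and 6.31 FPKM at chromosome 17 (chr17:34263227-34269418) in laboratory mice 2 and 3 and 1.18, 2.40 and 30.5 in wild mice 1 to 3. At alternate B it had 0.288, 0.1202 and 0.0391 FPKM in laboratory mice 1 to 3 and 0.749, 11.2 and 30.5 in wild mice 1 to 3, without overlap (-1.80 ± 0.36, SE, limma, adjusted p = 1.48e-05, 0.182 without the trend). Leaving out wild mouse 3 or laboratory mouse 3 ended this call, with adjusted p of 0.0836 and 0.135, and with sex as a covariate the difference was -0.48 (adjusted p = 0.671). Both chains thus had the same order of wild mice at both places, wild mouse 1 below wild mouse 2 below wild mouse 3.

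H2-Eb1 is the beta chain of the second class II molecule, I-E, which mice of haplotype b lack because their alpha chain gene has lost its promoter. The alpha chain is listed as H2-Ea-ps and so was not one of the 46 genes. H2-Ea-ps was at 0 FPKM at each entry listed for the 3 laboratory mice, and had 3.13, 18.02 and 27.3 FPKM at chromosome 17 and 1.33, 9.59 and 17.6 at alternate A in wild mice 1 to 3. At alternate A, the entry listed for all 6 mice, the difference was -3.22 ± 0.46 in zFPKM with values under -3 set to -3 (SE, limma, adjusted p = 2.11e-10, 0.00685 without the trend). H2-Eb1 itself was present in both groups, with 6.92 and 3.41 FPKM in laboratory mice 2 and 3 at chromosome 17 and 0.909, 7.84 and 20.3 in wild mice 1 to 3, and it was not called there (adjusted p = 0.845) or at alternate B (adjusted p = 0.224). With sex as a covariate, and so resting on wild mouse 1, its chromosome 17 difference was 1.24 (limma, adjusted p = 0.0470).

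H2-DMa, H2-DMb1 and H2-DMb2 form H2-M, which loads peptides onto class II molecules, and H2-Oa and H2-Ob form H2-O, which restrains H2-M and is known from B cells. No entry of these 5 genes was called. H2-DMa had 0.663 and 0.623 FPKM in laboratory mice 2 and 3 at chromosome 17 and 0.199, 0.938 and 1.204 in wild mice 1 to 3. H2-DMb1 had 0.807 and 0.542 FPKM in laboratory mice 2 and 3 and 0.00479, 0.370 and 2.41 in wild mice 1 to 3. In H2-Ob, laboratory mice 2 and 3 had 0.112 and 0.259 FPKM and wild mice 1 to 3 had 0.00835, 0.0175 and 0.0445, so both laboratory mice were above the wild mice (1.03 ± 0.52, SE, limma, adjusted p = 0.198). H2-Oa stood in the same order at chromosome 17, with 0.0701 and 0.106 FPKM against 0.0123, 0.0205 and 0.0476.

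Markers of the cells that make class II differed in level among the same mice. The summed FPKM of 7 B cell markers (7 of 7 listed) was 4.36 to 5.34 in laboratory and 0.704 to 2.59 in wild mice, without overlap, and 2 of the 7 were called higher in laboratory mice (Cd79b and Pax5). The share of all names called in that direction was 6.88%. Pax5 was near the floor, with 0.0584, 0.0760 and 0.197 FPKM in laboratory mice 1 to 3 and 0, 0.00428 and 0 in wild mice 1 to 3. Its values of 0 were raised to -3 in zFPKM. Cd79b had 1.29, 1.79 and 1.58 FPKM in laboratory mice 1 to 3 and 0.127, 0.284 and 0.743 in wild mice 1 to 3. By limma without the trend Pax5 stayed called (adjusted p = 0.00951) and Cd79b did not (adjusted p = 0.151). With sex as a covariate Cd79b was called (adjusted p = 0.0187) and Pax5 was not (adjusted p = 0.115). The sum of 8 Kupffer cell markers was 39.6 to 49.3 in laboratory mice, against 13.7, 54.1 and 136 in wild mice 1 to 3, and limma called 0 of 8, with 2 at an unadjusted p under 0.05 and 0 without the trend. Their differences ran from -0.33 (Cd5l) to 0.48 (Cd68). With sex as a covariate, and so resting on wild mouse 1, they ran from 0.65 (Vsig4) to 1.69 (Marco). Clec4f, Csf1r and Cd68 were then called higher in laboratory mice. Wild mouse 1, the lowest of the 6 for these liver macrophage markers, was also the lowest of the 5 mice listed for H2-Aa, H2-Ab1 and H2-Eb1 at chromosome 17, and wild mouse 3 was the highest for the markers and for the 3 genes. This was not particular to macrophages. Wild mouse 1 also had the lowest sum for B cell, dendritic cell, natural killer cell and sinusoidal endothelium markers, though not for T cell markers. Wild mouse 3 also had the highest sum for dendritic cell, T cell and natural killer cell markers, though not for B cell or sinusoidal endothelium markers. The sum of 8 dendritic cell markers was 1.77 to 3.42 in laboratory and 0.641 to 4.29 in wild mice, with Siglech, a marker of plasmacytoid cells, called higher in laboratory mice. The sums of T cell and natural killer cell markers overlapped between the groups, and limma called 0 of 11 tested, with 0 at an unadjusted p under 0.05 and 1 without the trend. The part of these cells in the H2 values was not tested, and in bulk liver fewer cells of a type and less RNA per cell cannot be told apart.

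To compare the places of the entries without any scaling between mice, the FPKM at chromosome 17 was expressed as a share of the FPKM at chromosome 17 plus alternate B within each mouse, for the 16 H2 genes whose sum was at least 0.5 in all 5 mice. H2-Aa had 98.7% and 98.5% at chromosome 17 in laboratory mice 2 and 3 and 20.5%, 34.9% and 47.2% in wild mice 1 to 3. H2-T23 had 99.7% and 99.6% in the former and 4.85%, 25.2% and 74.4% in the latter. For H2-K2 it was 67.9% and 82.0% in laboratory mice 2 and 3, and wild mice 1 to 3 had 6.04%, 8.41% and 7.22%. For H2-Ab1 the shares were 99.0% and 99.4% against 61.3%, 17.7% and 49.996%. H2-K1 had 100% in laboratory mice 2 and 3 and 98.2%, 99.1% and 96.6% in wild mice 1 to 3. Nearly all of its FPKM thus stayed at chromosome 17 in both groups. The wild mice thus differed from one another by more than the 2 laboratory mice did in H2-Aa, H2-Ab1 and H2-T23, and were close together in H2-K2.

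**Figure D4:**
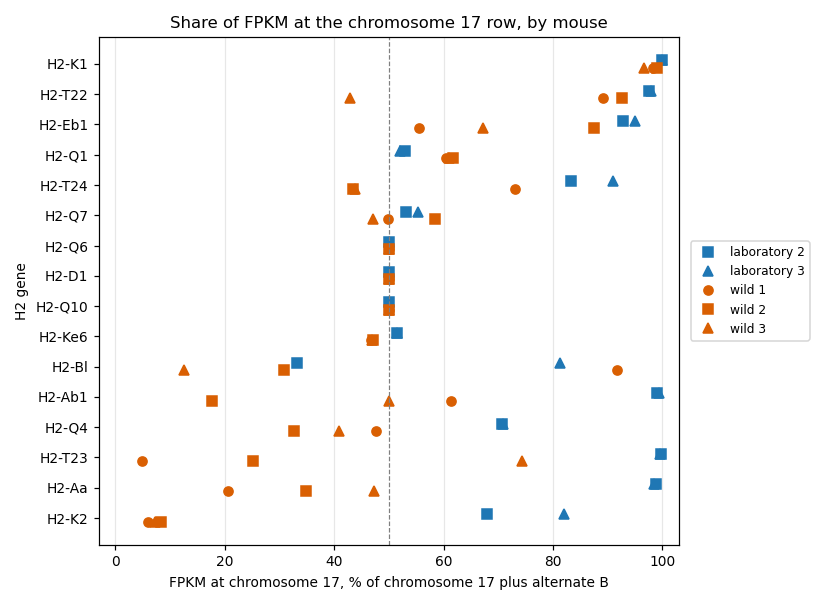
FPKM at the chromosome 17 entry as a percentage of chromosome 17 plus alternate B, for 16 H2 genes, 1 point per mouse (blue laboratory mice 2 and 3, orange wild mice 1 to 3), with a dashed line at 50%, where both entries are equal. Laboratory mice lie at 98.5% or more for H2-K1, H2-Aa, H2-Ab1 and H2-T23. For H2-K1 the wild mice also lie at 96.6% or more. H2-K2 of wild mice lies at 8.41% or less, and H2-Q10, H2-D1 and H2-Q6 stay at 50% in every mouse.

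All 3 wild mice were below both laboratory mice by over 10 percentage points for 6 of the 16 H2 genes (H2-Aa, H2-Ab1, H2-K2, H2-Q4, H2-T23 and H2-T24), against 26.3% of 76 other gene names with entries on both sequences. The same order was seen in other genes of the region, among which Tap1, Tap2, Psmb8 and Psmb9, genes of peptide supply to class I that lie between the H2 genes, were lower in all wild mice. Tap2, for example, had 76.1% and 76.7% in laboratory and 60.8%, 44.6% and 56.9% in wild mice. In the other direction, H2-Q1 alone of the 16 had a higher share in all wild mice (60.4% to 61.7%) than in laboratory mice (52.1% and 52.9%). With 2 mice against 3 the smallest p of a two-sided exact permutation test is 0.2, which H2-Aa, H2-K2 and H2-T23 each gave. How far the sequence of an allele decides at which entry its reads are counted was not tested.

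Genes that work with the H2 molecules but lie outside the rule were read at the level of names, of which 14.1% were called in all. Of 17 genes of class I loading and peptide supply, all tested, limma called 1 higher in laboratory and 1 higher in wild mice. B2m, the beta-2 microglobulin shared by all class I molecules, had 4431, 4306 and 2635 FPKM in laboratory mice 1 to 3 and 2290.4, 2957 and 3259.9 in wild mice 1 to 3, which overlapped (0.40 ± 0.10, SE, limma, adjusted p = 0.000659, 0.265 without the trend). The chaperone Canx was higher in wild mice, with 7.49 to 10.37 FPKM in laboratory and 69.6 to 82.1 in wild mice. Nlrc5, the activator of class I genes, was not called (adjusted p = 0.535).

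Of 15 tested genes of class II loading and control, 2 were called, both higher in wild mice, a share close to the 14.1% of all names. They were the proteases Ctsl (67.7 to 121 FPKM in laboratory and 445 to 542 in wild mice) and Ctsd (53.0 to 56.4 and 190.0 to 267). Cd74, the invariant chain that escorts class II molecules, had 65.0, 65.7 and 38.5 FPKM in laboratory mice 1 to 3 and 23.03, 133 and 296 in wild mice 1 to 3. Cd74 is listed once in every mouse, overlapped between the groups (-0.02 ± 0.13, SE, limma, adjusted p = 0.944), and had the order of wild mice seen for H2-Aa and H2-Ab1. With sex as a covariate, and so resting on wild mouse 1, the Cd74 difference was 0.84 (limma, adjusted p = 0.0470). Ciita, the activator of class II genes, had 0.0925, 0.174 and 0.290 FPKM in laboratory mice 1 to 3, against 0, 0.242 and 0.892 in wild mice 1 to 3.

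Among 11 tested class I-like genes outside the complex, Cd1d1 (14.8 to 49.1 FPKM in laboratory and 94.5 to 139 in wild mice), its copy Cd1d2 and Raet1e, a ligand of the receptor NKG2D, were called higher in wild mice, and Azgp1 was called higher in laboratory mice. That was 3 higher in wild and 1 higher in laboratory mice, against 7.19% and 6.88% of all names. Cd1d1 and Cd1d2 are near copies and may share reads. Of 12 tested receptors that bind MHC molecules limma called 0, with 1 at an unadjusted p under 0.05 and 0 without the trend. Without the trend, limma also called 0 of the 43 tested genes of class I and class II loading and class I-like genes, with 7 at an unadjusted p under 0.05. Of 12 interferon response genes, Mx1 was called higher in laboratory mice and Gbp2 and Irgm1 higher in wild mice, the last a repeated name that was not called with laboratory mouse 1 missing. The interferon counts were 1 higher in laboratory and 2 higher in wild mice, against 6.88% and 7.19% of all names. Without the trend limma called 0 of these 12, with 1 at an unadjusted p under 0.05. Over the span of the H2 genes on chromosome 17, 120 of 238 other gene names were tested and 15 were called, against 14.1% of all names, with 6 higher in laboratory and 9 higher in wild mice, among the latter the heat shock genes Hspa1a and Hspa1b and the apolipoprotein gene Apom. Of the 238 names 222 were repeated. With laboratory mouse 1 missing for repeated names, 6 were called higher in laboratory and 6 higher in wild mice.

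Across the whole series, 2753 of 19567 gene names were called, 1346 higher in laboratory and 1407 higher in wild mice, and on log2(FPKM + 0.1) the split was 1527 and 7289. Of 8 hepatocyte markers 7 had values above 0 in every mouse, with sums of 19159 FPKM or more, while Alb had a usable estimate only in laboratory mouse 3 and is listed at 0 in laboratory mouse 1. Xist and 4 Y-linked genes matched the labelled sexes in the 6 mice. Read counts were not used here, the depth behind each FPKM is unknown, and neither counting intervals nor floors are given.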

How the data were processed

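Liver of 3 C57BL/6 and 3 wild mice was measured once each by RNA-Seq with stranded mRNA libraries. Alignment by the authors used kalign and a masked genome (GRCm38.p6 in the submitters' processing notes), and the deposited FPKM came from the Tuxedo pipeline. The authors then made the deposited zFPKM, a score, with the R package zFPKM. The deposited values contain no read counts, so no count test was run.

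The members, gene lists and tests were chosen with earlier results of these data known. The highest FPKM entry of a name was taken in each mouse, entries with a failed estimate were left out, and no H2 entry had one. Names or entries with zFPKM above -3 in at least 3 mice entered the test, and lower values were raised to -3, in limma 3.58.1 under R 4.3.3 (lmFit, and eBayes with trend), with Benjamini-Hochberg adjustment over all names or entries and a threshold of 0.05. Differences are laboratory minus wild mice. Permutation tests and sums were computed in Python 3.11.15 with scipy 1.17.1 and pandas 2.3.3. The fit was tested on simulated data. Mice were grouped by their labels and are separate animals. No 2 mice had identical values. The genes named were those called, those with no overlap, those with zFPKM above 0 in a group and those with several entries, and in other lists the called members and the most abundant one. H2-Ea-ps was named after its values were seen. Some genes of the lists are left out of their counts and sums and are not reported here. The fit over entries was added after the data were seen. Alternatives were other floors, filters, scales and normalisations, limma without trend, sex as a covariate, other treatments of repeated names, and each mouse left out in turn. Promoter windows came from the RefSeq table of GRCm38.p6. Starts are given 1-based, which is 1 more than in the files.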

Additional observations from a re-analysis of the deposited data

How the results depend on the processing

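No paired analysis was made, because the laboratory and wild mice were separate animals with no pairing between the groups. The numbers used here only name the mice. The count of all gene names called (2753) moved to 1821 with a floor of -5, 1195 with a floor of -20, 20 without a filter, 8488 on log2(FPKM + 1), 8816 on log2(FPKM + 0.1), 7368 after quantile normalisation, 5287 with medians set to 0, 791 without the trend and 1200 with sex as a covariate, and ranged from 1436 to 2410 with 1 mouse left out. The H2 genes called (4) became 2 with either floor, 0 without a filter, 2 without the trend, 2 with sex as a covariate, 8 with the entries of a name summed and 1 when only names listed once were used, and ranged from 2 to 6 with 1 mouse left out. Over entries, 2832 calls became 844 without the trend, 1388 with sex as a covariate, 7864 after quantile normalisation, 5664 with medians set to 0 and 9323 on log2(FPKM + 0.1), with 1450 to 2524 when 1 mouse was left out. The 20 H2 entries called became 6 without the trend and 10 to 17 with 1 mouse left out, where 10 was the count without laboratory mouse 3.

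Some directions turned. H2-K1 turned to 0.62 with the chromosome entry alone, with the 0 of laboratory mouse 1 as missing and with that mouse missing for repeated names, and ranged from -2.19 to 0.62 with 1 mouse left out. H2-T23 turned to 0.56 with the chromosome entry alone. H2-D4 turned to -0.40 and -0.45 on log2(FPKM + 1) and log2(FPKM + 0.1) and ranged from -0.15 to 0.30 with 1 mouse left out. H2-Q9 turned to 0.019 after quantile normalisation and 0.40 with sex as a covariate, with -0.26 to 0.19 when 1 mouse was left out. Over entries, H2-D1 turned to 0.61 with sex as a covariate, 0.030 after quantile normalisation and 0.028 with medians set to 0, with -0.32 to 0.26 when 1 mouse was left out. H2-Q10 turned to -0.057 after quantile normalisation and -0.78 on log2(FPKM + 0.1), with -0.12 to 0.13 when 1 mouse was left out. H2-T22 at chromosome 17 turned to -0.060 and H2-Eb1 at alternate B to 0.13 with sex as a covariate, and on log2(FPKM + 0.1) H2-Eb1 at chromosome 17 turned to -0.14 and H2-Ke6 at alternate B to -0.17. With 1 mouse left out, H2-T23 at chromosome 17 ranged from -0.018 to 0.998, H2-Aa from -0.078 to 0.98 and H2-Eb1 from -0.45 to 0.51. H2-T23 at alternate B kept its direction and its call in each of the alternatives, and so did H2-K1 at alternate C. The cause of the other changes was not tested. The depth is unknown, and the precision rests on 2 or 3 mice a group.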
